A study of Homo sapiens with 4 samples.

Results

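The 10 genes described here encode proteins of the respiratory chain and ATP synthase and lie in the mitochondrial genome, and were followed in single-cell RNA sequencing of 2 cancer cell lines. They are MT-ND1, MT-ND2, MT-ND3, MT-ND4 and MT-ND5 of complex I, MT-CYB of complex III, MT-CO1, MT-CO2 and MT-CO3 of complex IV, and MT-ATP6 of ATP synthase (complex V). A gene was found where the gene name of a row of the gene count table equalled its symbol. Of the 10 genes, 7 were found in this way, in 10 features of the table, among 43296 gene names in all. MT-ND4, MT-CO3 and MT-ATP6 had no row under their own name alone among the rows analysed here and are described from names that join them to a neighbour.

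The cells were H1299, a line from human lung cancer (non-small cell) grown in RPMI medium, and HCT116, a human colorectal cancer line grown in McCoy's 5A medium. Both were at passage 5 to 10. Each line received either DMSO, the solvent, or decitabine (DAC), an inhibitor of DNA methyltransferases, together with SB939, an inhibitor of histone deacetylases. Both compounds were used at 500 nM, DAC over 72 h and SB939 over 18 h, with fresh compound-containing medium every 24 h, and the treated groups are called DAC+SB. The 5′ chemistry of 10x Genomics was used, in which a read starts near the 5′ end of a polyadenylated RNA. Each line and treatment was 1 library, so no difference below has a replicate check and none was tested. Intervals in parentheses are exact 95% intervals that cover counting error only and say nothing of variation between cultures or captures.

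Human mitochondrial DNA is transcribed by the polymerase POLRMT, with TFAM and TFB2M, into long RNAs that span almost a whole strand. Enzymes then cut out the tRNAs that lie between most protein genes, and the freed mRNAs receive short poly(A) tails that help complete some stop codons. The mRNAs hardly have untranslated ends, so most begin at or next to the first codon. Their proteins are core subunits of the complexes that carry electrons to oxygen, pump protons and make ATP, and nuclear genes supply the other subunits.

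Values of the 4 libraries are given below in a fixed order, first H1299 with DMSO and with DAC+SB, then HCT116 with DMSO and with DAC+SB. The libraries held 3578, 3726, 3658 and 4327 cells. Gene and transposable element (TE) counts summed to 64524196, 62428673, 62639099 and 38927267, and the median count per cell was 17369.5, 15784.5, 16257.5 and 8449. The treated HCT116 library thus had the fewest counts per cell. Summed levels of 4 H1299 markers (VIM, AXL, ZEB1, CDH2) were 2528, 1199, 84.5 and 285 counts per 1000000 (CPM), and those of 6 HCT116 markers (EPCAM, CDH1, CLDN7, ESRP1, KRT19, LGALS4) were 0.325, 56.0, 315 and 357 CPM. CDH2 was at 0 in HCT116 DMSO and CDH1 at 0 in H1299 DMSO. As sums, both lists were thus higher in their own line under either treatment. With DAC+SB, ESRP1 (2.92 CPM in H1299 and 2.41 in HCT116) and LGALS4 (1.60 and 1.08) went the other way, and ZEB1 was near level (14.4 and 14.1). The other markers were higher in their own line. Of 5 immune and stromal markers, PTPRC, CD3E, CD14 and PECAM1 reached at most 1.52 CPM and COL1A1 17.96 CPM. A cell barcode found in more than 1 library belonged to 262 of the 15289 cells, with 18 to 30 shared between any 2 libraries.

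How the table names these genes is easier to follow from where they start. GENCODE v29 places all 10 genes on the + strand of the GRCh38 mitochondrial chromosome (chrM). A tRNA gene on the same strand ends directly before MT-ND2, MT-ND3, MT-ND5 and MT-CO2, and 2 bases before MT-ND1. The last 15 bases of the tRNA gene (lower case) and the first 15 of the protein gene (capitals) are shown for the 4 direct junctions, 5′ to 3′.
MT-TM to MT-ND2, chrM:4455-4484, + strand: acccttcccgtactaATTAATCCCCTGGCC
MT-TG to MT-ND3, chrM:10044-10073, + strand: attcaaaaaagagtaATAAACTTCGCCTTA
MT-TL2 to MT-ND5, chrM:12322-12351, + strand: ctccaaataaaagtaATAACCATGCACACT
MT-TD to MT-CO2, chrM:7571-7600, + strand: atcctatatatcttaATGGCACATGCAGCG

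MT-CO1 and MT-CYB differ, since the gene before each (MT-TY, 12 bases away, and MT-TE, 4 bases away) is a tRNA gene on the other strand. The first 30 bases of MT-CO1 are shown with the first codon in capitals, beside those of MT-ATP6 and MT-CO3, which overlap the gene before them by 46 bases and 1 base. The first codon is ATG in 6 of the 10 genes, ATA in 3 and ATT in 1, and all of these are used as start codons in human mitochondria.
MT-CO1, chrM:5904-5933, + strand: ATGttcgccgaccgttgactattctctaca
MT-ATP6, chrM:8527-8556, + strand: ATGaacgaaaatctgttcgcttcattcatt
MT-CO3, chrM:9207-9236, + strand: ATGacccaccaatcacatgcctatcatata

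Features come without a number, with a number after a gene name, or with a number after several gene names joined together. For the 10 genes the number is always 1. The meaning of the number is not stated in the labels or the table. Of the 15 joined names that hold a mitochondrially encoded gene, 7 hold one of the 10 genes, and each of these 7 joins a gene to the gene or genes just before it. Names of tRNA genes alone can skip a gene. MT-TI with MT-TM leaves out MT-TQ, and MT-TA with MT-TN and MT-TY leaves out MT-TC. MT-CO2 is joined with MT-TD, MT-ND3 with MT-TG, MT-ND1 with MT-TL1 and MT-ND5 with MT-TH, MT-TS2 and MT-TL2, whereas MT-CO1 and MT-CYB, with no same-strand tRNA directly before them, have a numbered feature of their own. MT-ND2 departs from this, since MT-TM lies directly before it on the same strand and it still has a numbered feature of its own and no joined name. MT-ND4 is named only with MT-ND4L, and MT-ATP6 only with MT-ATP8 and with MT-CO3. Positions of reads are not in the table, so where a joined count lies along these genes is not known.

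Joined names held somewhat fewer counts than the genes' own names in H1299 and more in HCT116. The own names of the 7 genes summed to 17.7%, 19.2%, 12.8% and 16.6% of all mitochondrially encoded counts, and the joined names that hold one of the 10 genes to 16.6%, 17.3%, 15.2% and 19.6%. MT-CO2 and MT-ND3 were counted mostly there, with 84.5% to 90.0% of MT-CO2 counts and 95.7% to 96.7% of MT-ND3 counts in a joined name. The share was 42.0% to 57.8% for MT-ND1 and 35.4% to 46.3% for MT-ND5, and for both it was higher in HCT116 than in H1299 under either treatment. The numbered features of MT-CYB held 69.7% to 76.0% of its counts and those of MT-CO1 33.9% to 48.7%. For MT-CO1 that share was 33.9% (33.7 to 34.1), 36.5% (36.3 to 36.6), 42.4% (42.3 to 42.6) and 48.7% (48.5 to 48.8), so it was higher with DAC+SB in both lines. The joined share of MT-ND1 was lower with DAC+SB in both lines, at 44.1%, 42.0%, 57.8% and 51.5%. So were the joined shares of MT-ND3 and MT-ND5 and the numbered share of MT-CYB. That of MT-CO2 was lower in H1299 and higher in HCT116. A numbered MT-ND2 feature was listed in H1299 DAC+SB only, with 12034 counts or 12.6% of the gene's counts there. Numbered features were listed from 10 counts in each library, so the count of this feature in the other 3 libraries is not known and may be 0.

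**Figure D1:**
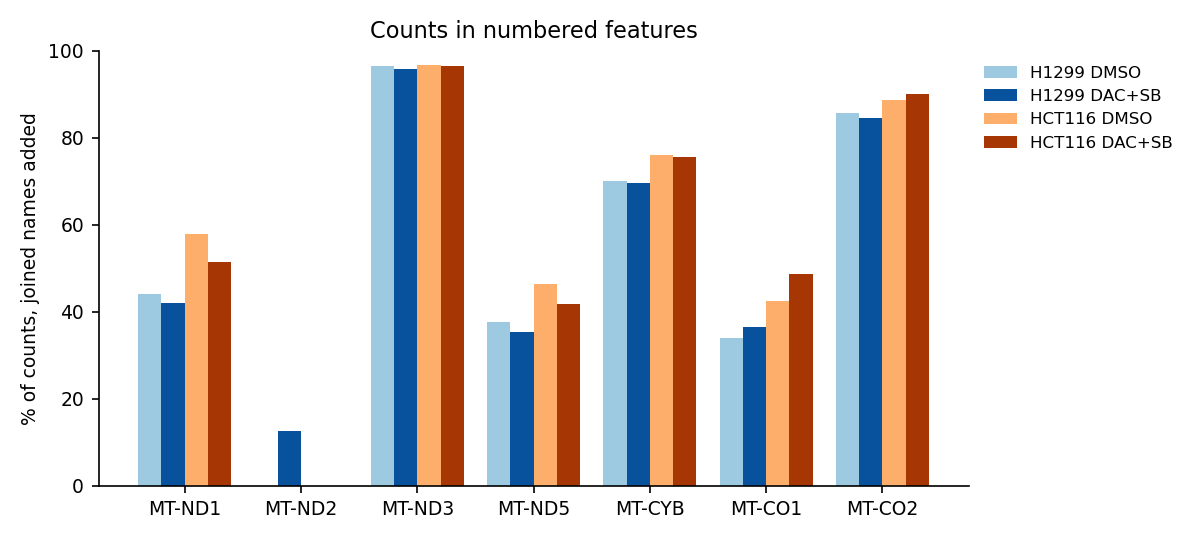
Share of each gene's counts (%, y axis from 0) that lay in numbered features, with joined names added, for the 7 genes found by name (x axis) in the 4 libraries (bar colours). MT-ND3 is near 96% in every library, MT-CO2 between 84.5% and 90.0%, and MT-ND2 has a bar in H1299 DAC+SB only.

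Levels below are CPM of all gene and TE counts for each gene's own name, and values that include joined names are marked as such. Summed over the 7 genes, the level was 16763 (16732 to 16795), 17967 (17934 to 18000), 22366 (22329 to 22403) and 30304 (30249 to 30359) CPM. With joined names added, the sum over the 10 genes was 32564, 34176, 48835 and 65975 CPM, in the same order of libraries. Each line was thus higher with DAC+SB, and HCT116 was higher than H1299 under either treatment, on the CPM scale. As mean counts per cell the order was different, with 302.3, 301.0, 383.0 and 272.6 counts. MT-CYB and MT-CO1 made up most of the sum, with 29.6% to 36.1% and 28.6% to 36.5% of it.

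Per kilobase of gene length, the order of the 7 genes was the same in all 4 libraries, from MT-CYB through MT-CO1, MT-CO2, MT-ND1, MT-ND2 and MT-ND5 to MT-ND3. In H1299 DMSO the level was 4743 CPM per kb for MT-CYB, 3112 for MT-CO1, 2248 for MT-CO2, 2221 for MT-ND1, 1421 for MT-ND2, 699 for MT-ND5 and 417 for MT-ND3. MT-CO2 and MT-ND1 were the closest neighbours there. With joined names added, MT-CO2 (15583 CPM per kb in H1299 DMSO) and MT-ND3 (12210) led instead. By CPM of own names, without division by length, the order was not the same in all libraries. MT-ND1 was above MT-CO2 in H1299 DMSO (2123 and 1538 CPM), and MT-CO1 above MT-CYB in HCT116 DAC+SB (11050 and 10383 CPM). Counts of 5′ libraries need not grow with gene length. The order of levels among these genes thus depends on that division and on whether a joined name is counted.

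**Figure D2:**
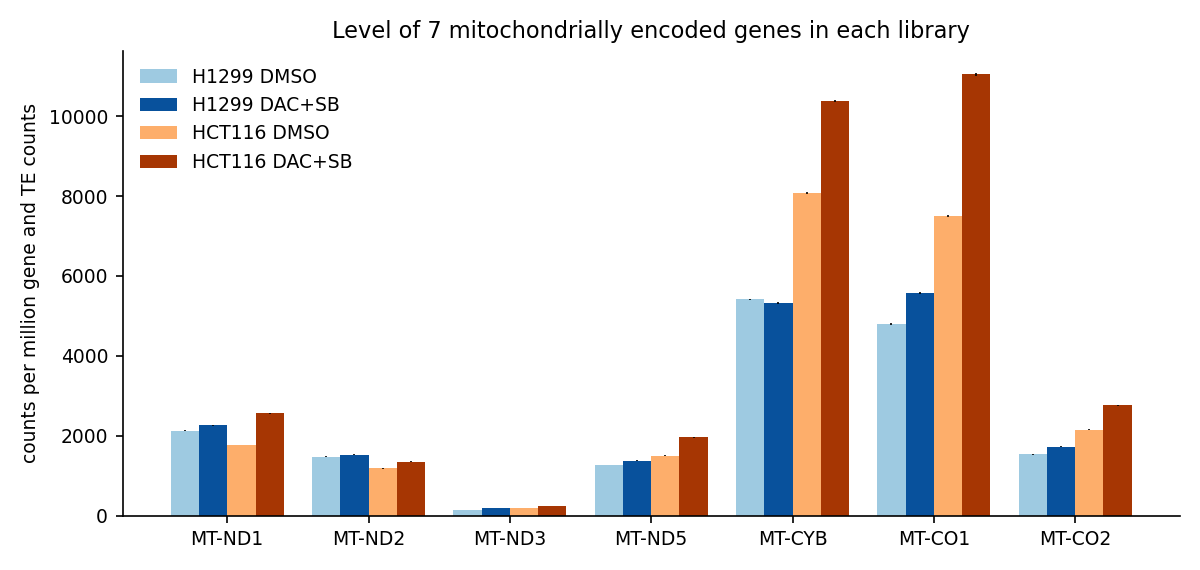
Level of the 7 genes found by name (x axis) in CPM of gene and TE counts (y axis, linear from 0), own names only, in the 4 libraries (bar colours), with exact Poisson 95% intervals that are narrower than the lines drawn. MT-CYB and MT-CO1 are highest in every library, and all 7 bars of HCT116 DAC+SB are above those of HCT116 DMSO, whereas per cell all 7 were lower.

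The comparison of treatments asks how the genes differed after inhibition of DNA methylation and histone deacetylation in each line. In H1299 the summed level was 1.07-fold (1.07 to 1.07) that of DMSO, a log2 ratio of 0.10, and the log2 ratios of the 7 genes ran from -0.02 to 0.39. None of the 7 was past 1.5-fold in either direction, where 24.9% of the 14610 genes compared were past 1.5-fold upward and 21.3% downward. In HCT116 the summed level was 1.35-fold (1.35 to 1.36), a log2 ratio of 0.44, with all 7 genes above DMSO (0.18 to 0.56). Again none of the 7 was past 1.5-fold on the CPM scale, where 22.7% of 13539 genes were past 1.5-fold upward and 35.2% downward. That count of 0 depended on the scale, with 6 of the 7 past 1.5-fold higher under size factors from nuclear genes, 2 higher with gene counts alone as denominator and 2 lower per cell. These scales move every gene by 0.31, 0.08 and -0.93, and the shares of all genes just given are for the CPM scale only. The median log2 ratio of the 7 genes was 0.12 in H1299 and 0.36 in HCT116, beside -0.07 and -0.23 over all genes compared.

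The direction in HCT116 depended on the scale. Per cell, all 7 genes were lower with DAC+SB (log2 ratios of -0.75 to -0.37) and the sum was at -0.49, while its cells had 8996 counts on average with DAC+SB and 17124 with DMSO. In H1299 the sum per cell was at -0.0061. With size factors from nuclear genes in place of library totals, the sums were at 0.28 and 0.75. Among cells of 10000 to 15000 counts, a range present in all 4 libraries, the summed level was 19522, 22066, 23736 and 28817 CPM over 894, 1107, 1128 and 1193 cells. Log2 ratios there were 0.18 in H1299 and 0.28 in HCT116, and mean counts per cell were 250.8, 279.8, 302.6 and 349.6. So within that range of depth the sum was higher with DAC+SB in both lines. Counts per cell are nearly fixed there, so CPM and counts per cell give close ratios by design. In HCT116 the range lies below the median count per cell with DMSO (16257.5) and above that with DAC+SB (8449).

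Complex I takes electrons from NADH, and its mitochondrially encoded subunits build the membrane arm. MT-ND1 encodes the subunit next to the quinone site, and its level was 2123, 2262, 1767 and 2559 CPM. It was 1.07-fold (1.06 to 1.07) in H1299 and 1.45-fold (1.44 to 1.46) in HCT116, so HCT116 DMSO was the lowest library and HCT116 DAC+SB the highest. With its joined name added, the level was 3798, 3897, 4188 and 5276 CPM, and the ratios were 1.03-fold (1.02 to 1.03) in H1299 and 1.26-fold (1.25 to 1.27) in HCT116. HCT116 DMSO was then above both H1299 libraries.

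MT-ND2 encodes a proton-pumping, antiporter-like subunit, and was at 1481, 1527, 1186 and 1346 CPM. Both HCT116 libraries were below both H1299 libraries, but without the numbered feature that only H1299 DAC+SB lists, that library was at 1334 CPM, just below HCT116 DAC+SB. Its ratio to DMSO was 1.03-fold (1.02 to 1.04) in H1299, but 0.90-fold without that feature, and 1.14-fold (1.12 to 1.15) in HCT116.

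MT-ND3, a small subunit at the hinge between the arms of the complex, was at 144, 189, 188 and 237 CPM. On the CPM scale it was the only one of the 7 genes whose log2 ratio was not larger in HCT116, with 0.39 (0.35 to 0.43) in H1299 and 0.34 (0.30 to 0.38) in HCT116, a difference of -0.05 whose counting interval (-0.10 to 0.01) includes 0. With size factors the ratios were 0.57 and 0.65, so the order turned. The values rest on the small part of its counts under the own name. With the joined name added, MT-ND3 was at 4225, 4423, 5654 and 6766 CPM, and its log2 ratios were 0.07 and 0.26.

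MT-ND5, the antiporter-like subunit at the far end of the membrane arm, was at 1267, 1374, 1501 and 1963 CPM, or 1.09-fold (1.07 to 1.10) in H1299 and 1.31-fold (1.30 to 1.32) in HCT116. With its joined names added it was at 2032, 2127, 2797 and 3368 CPM, or 1.05-fold and 1.20-fold. Among cells of 10000 to 15000 counts, its HCT116 log2 ratio was 0.05 in place of 0.39, whereas that of MT-ND1 was 0.58 in place of 0.53. MT-ND4, another antiporter-like subunit, had only the name it shares with MT-ND4L, with 1276, 1251, 1596 and 1112 counts. Its log2 ratio there was 0.02 (-0.09 to 0.13) in H1299 and 0.16 (0.05 to 0.28) in HCT116, so in H1299 no difference was detectable at this depth. MT-ND4L with its joined names had 240102, 230618, 417501 and 293336 counts, so the name shared with MT-ND4 held a small part of them. The values of MT-ND4 thus describe that shared feature and not its whole RNA.

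Complex III passes electrons from ubiquinol to cytochrome c, and MT-CYB, its only mitochondrially encoded subunit, carries the quinone sites. MT-CYB was at 5412 (5394 to 5430), 5320.0 (5302 to 5338), 8078 (8055 to 8100) and 10383 (10351 to 10415) CPM. It was the only one of the 7 below DMSO in H1299, at 0.983-fold (0.978 to 0.988), and was 1.29-fold (1.28 to 1.29) in HCT116. The H1299 ratio was above 1 under other settings, with a log2 ratio of 0.02 among cells of 10000 to 15000 counts, 0.02 with gene counts alone as denominator and 0.16 with size factors.

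Complex IV reduces oxygen. MT-CO1 holds the heme and copper centre at which this happens, and was at 4798 (4781 to 4815), 5569 (5550 to 5587), 7494 (7473 to 7516) and 11050.3 (11017 to 11083) CPM. Its ratios by own names over all cells were 1.16-fold (1.15 to 1.17) in H1299 and 1.47-fold (1.47 to 1.48) in HCT116. They ranked second after MT-ND3 in H1299 and first in HCT116 among the 7 genes. With joined names added, MT-CO1 was highest in both lines. Among HCT116 cells of 10000 to 15000 counts, MT-ND1 (log2 ratio of 0.58) and MT-CO2 (0.329) were above MT-CO1 (0.324). The ratio was larger for the numbered MT-CO1 feature, with 1.25-fold in H1299 and 1.69-fold in HCT116, against 1.12-fold and 1.32-fold for the feature without a number. The 2 features of MT-CYB lay closer together, at 0.98-fold and 1.00-fold in H1299 and 1.28-fold and 1.31-fold in HCT116.

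MT-CO2, which receives electrons from cytochrome c, was at 1538, 1727, 2152 and 2766 CPM under its own name, or 1.12-fold (1.11 to 1.13) in H1299 and 1.29-fold (1.28 to 1.30) in HCT116. With the name it shares with MT-TD, it was at 10659, 11162, 19144 and 27528 CPM, and the ratios were 1.05-fold and 1.44-fold. MT-CO3, a structural subunit, was counted only jointly with MT-ATP6, with 1127, 1052, 1865 and 1388 counts. Its log2 ratio was -0.05 (-0.17 to 0.07) in H1299, not distinguishable from 0 at this depth, and 0.26 (0.16 to 0.36) in HCT116. As for MT-ND4, these values describe the shared feature and not the whole RNA.

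ATP synthase uses the proton gradient, and MT-ATP6 forms its proton channel. Its joined names summed to 138, 131, 268 and 228 CPM. On the CPM scale MT-ATP6 was the only one of the 10 genes below DMSO in both lines when joined names were counted, at 0.952-fold (0.924 to 0.981) in H1299 and 0.853-fold (0.831 to 0.875) in HCT116. These are log2 ratios of -0.07 and -0.23, and size factors, which move every gene by 0.18 and 0.31, put both above 0. The lower value in HCT116 lay in the name shared with MT-ATP8 (238 and 193 CPM in DMSO and DAC+SB), whereas the name shared with MT-CO3 was higher (29.8 and 35.7 CPM). These features held few counts beside MT-ATP8, which was at 2893, 2605, 5337 and 6077 CPM with joined names. MT-ATP8 was then 0.90-fold in H1299 and 1.14-fold in HCT116. MT-ATP6 overlaps MT-ATP8 and read positions are not known. The values of MT-ATP6 thus describe the features that name it and not its whole RNA.

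**Figure D3:**
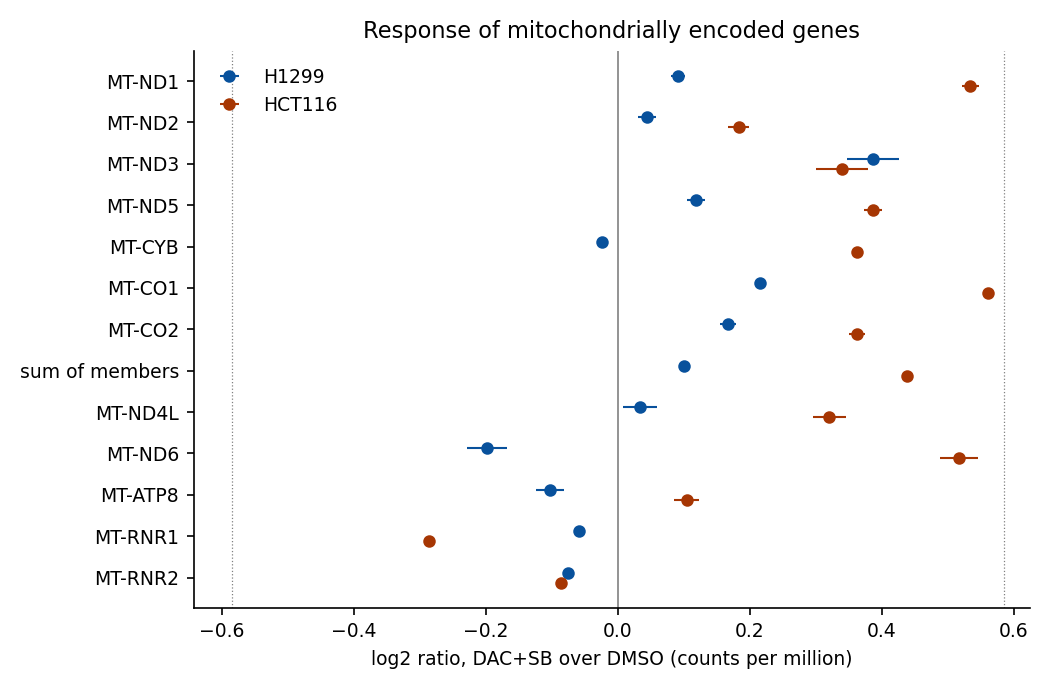
Log2 ratio of DAC+SB over DMSO on the CPM scale (x axis) for the 7 genes found by name, their sum, 3 other mitochondrially encoded protein genes (own names) and the mitochondrial rRNAs (joined names added), in H1299 (blue) and HCT116 (brown). Horizontal lines are 95% counting intervals and dotted lines mark 1.5-fold. All 7 genes are above 0 in HCT116 and 6 of 7 in H1299, whereas both rRNAs are below 0. Per cell all 7 genes were below 0 in HCT116, and with size factors the rRNA sum was above 0 in both lines. By its own name alone MT-RNR2 was above 0 in both lines.

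The mitochondrial genes that are not among the 10 gave a frame for these values. GENCODE v29 holds 13 mitochondrially encoded protein genes, and the other 3 had log2 ratios under their own names of 0.03 in H1299 and 0.32 in HCT116 for MT-ND4L, -0.20 and 0.52 for MT-ND6 and -0.10 and 0.10 for MT-ATP8. MT-ND6 is the only protein gene of the other strand, and whether counting used the strand is not stated in the labels. Its HCT116 value lay mostly in its numbered feature, with a log2 ratio of 0.84 against 0.06 for the feature without a number. The rRNAs MT-RNR1 and MT-RNR2 summed to 54828, 52195, 112536 and 100941 CPM, with joined names. They held 57.7%, 55.8%, 64.5% and 55.3% of all mitochondrially encoded counts. On the CPM scale this sum with joined names was below DMSO in both lines, with log2 ratios of -0.07 and -0.16. The sum of the 7 protein genes by own names was above DMSO, as was that of the 10 with joined names (0.07 and 0.43). By own names alone, MT-RNR2 was above DMSO in both lines (0.14 and 0.13) and MT-RNR1 below it (-0.12 and -0.58). With size factors from nuclear genes the rRNA sum was instead at 0.11 and 0.16, and among cells of 10000 to 15000 counts it was at 0.14 in H1299 and -0.17 in HCT116. Its direction thus depended on the scale and the cells, and that of MT-RNR2 also on the features counted. Among the H1299 cells of that range the rRNA sum was above MT-CYB (0.02) and level with MT-ND5 (0.14). With joined names, MT-RNR1 and MT-RNR2 went apart in HCT116, at 0.820-fold (0.818 to 0.822) and 0.942-fold (0.941 to 0.944). Of 394 annotated pseudogenes of mitochondrial genes in the nucleus, 5 had a row, with 53 counts in all. Reads of such copies that were counted to the mitochondrial genes cannot be told apart.

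The comparison of lines asks how HCT116 and H1299 differed. Under DMSO the summed level in HCT116 was 1.33-fold (1.33 to 1.34) that of H1299. MT-CO1 was the only one of the 7 at least 1.5-fold higher, at 1.56-fold (1.55 to 1.57), where 23.8% of 13796 genes were past 1.5-fold upward and 31.5% downward. MT-CYB, at a log2 ratio of 0.58 (0.57 to 0.58), lay just under that size. MT-CO1, at a log2 ratio of 0.64, was under it per cell (0.57), among cells of 10000 to 15000 counts (0.50) and for features without a number (0.44). With mitochondrial genes left out of the denominator 3 of the 7 were past it. MT-ND1 and MT-ND2 went the other way, at 0.832-fold (0.826 to 0.839) and 0.801-fold (0.793 to 0.809). For MT-ND1 this held under its own name only, and with the joined name it was 1.10-fold higher in HCT116.

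Under DAC+SB the sum was 1.69-fold (1.68 to 1.69) higher in HCT116. MT-CO1 (1.98-fold), MT-CYB (1.95-fold) and MT-CO2 (1.60-fold) were at least 1.5-fold higher, or 3 of the 7 genes, where 20.1% of 14875 genes were past 1.5-fold upward and 38.6% downward. MT-ND1 was 1.13-fold (1.12 to 1.14) higher in HCT116 on the CPM scale. MT-ND2 was lower, at 0.882-fold (0.872 to 0.891), but at a log2 ratio of 0.01 without its numbered feature and 0.0039 with size factors. Per cell, the sum was lower in treated HCT116 (log2 ratio of -0.14), with MT-CO2 at -0.22, MT-CO1 at 0.09, and MT-ND1 (-0.72) and MT-ND2 (-1.08) past 1.5-fold lower. That scale moves every gene by -0.90 in this comparison, and the shares of all genes just given are for the CPM scale. Among cells of 10000 to 15000 counts only MT-CYB of the 7 genes was past 1.5-fold, with a log2 ratio of 0.71, while MT-CO1 was at 0.54 and MT-ND2 at -0.55. MT-ND1 (-0.14), MT-ND3 (-0.11) and MT-ND5 (-0.026) turned below H1299 there. With joined names added, 4 of 10 genes under DMSO and 7 of 10 under DAC+SB were at least 1.5-fold higher in HCT116, with MT-CO2 at 1.80-fold and 2.47-fold and MT-ATP6 at 1.94-fold and 1.74-fold. The shares of all genes above are by own names, so none stands beside these counts with joined names. MT-CO3, also among them, has only the feature it shares with MT-ATP6, so the 10 genes are not separate here. MT-RNR1 was 2.49-fold (2.48 to 2.50) and MT-RNR2 1.86-fold (1.86 to 1.86) higher in HCT116 under DMSO, more than the sum of the 7 protein genes.

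The counts per cell moved with the level of these genes within each library. When the cells of a library were ordered by their counts and divided into 4 groups of equal size, the summed share of the 7 genes went from 2.05% in the lowest to 1.46% in the highest group of H1299 DMSO. It went from 2.57% to 1.37%, from 2.50% to 2.12% and from 3.65% to 2.65% in the other libraries. The counts of these genes per cell went the other way, from 217 to 389, 229 to 359, 256 to 541 and 134 to 406. Cells with fewer counts thus gave a larger part of them to these genes. In H1299 the highest groups with DMSO and DAC+SB were at 1.46% and 1.37%, in the opposite order from the 3 lower groups. MT-ND1 (1761 CPM in the lowest and 1822 CPM in the highest group) and MT-ND2 (1196 and 1205) did not follow this pattern in HCT116 DMSO, nor did MT-CO2 (2507 and 2559) in HCT116 DAC+SB. In that library MT-ND5 went from 3248 to 1510.2 CPM and MT-CO1 from 15497 to 9232 CPM. The part that depth per cell has in the difference between treatments was not tested. The range of 10000 to 15000 counts given above takes shallower cells of HCT116 DMSO and deeper cells of HCT116 DAC+SB.

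**Figure D4:**
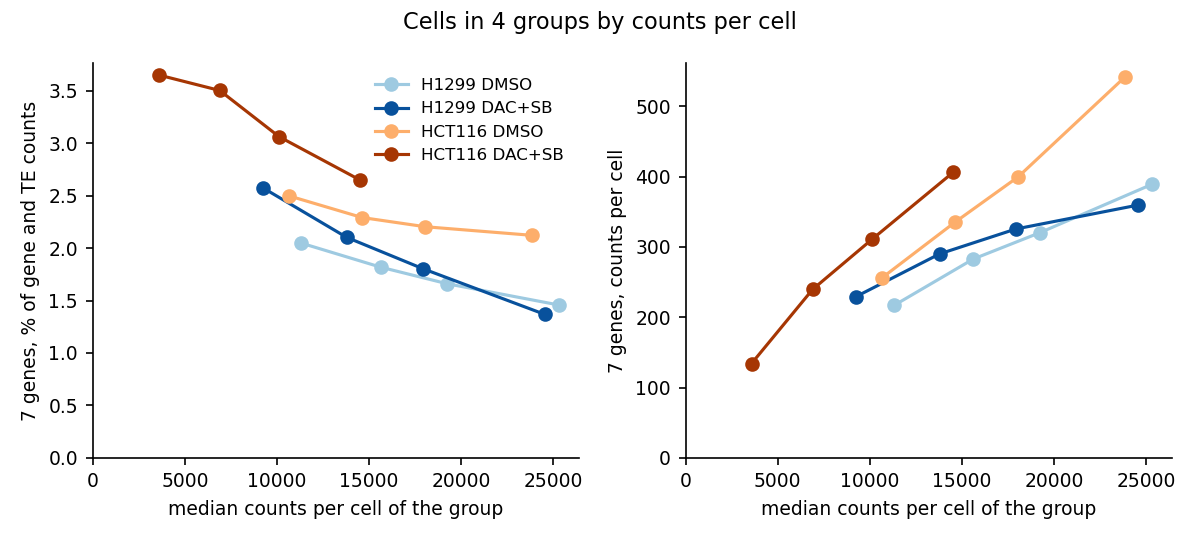
Left, summed share of the 7 genes (% of gene and TE counts) and right, their summed counts per cell, for cells of each library in 4 groups by counts per cell (x axis, median counts per cell of the group). Each point is 1 group and each line 1 library. The share goes down and the counts per cell go up from the lowest to the highest group in all 4 libraries.

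Levels in single cells were compared after each cell was thinned at random to 3300 counts, which 402 cells of HCT116 DAC+SB, and none of the other libraries, were too shallow for. The median summed share of the 7 genes was 1.67% (quartiles 1.36 and 2.09), 1.85% (1.33 and 2.45), 2.24% (1.85 and 2.67) and 3.09% (2.45 and 3.82). Unthinned medians were 1.68%, 1.86%, 2.23% and 3.12%. The distributions overlapped widely in H1299, and in HCT116 the lower quartile with DAC+SB lay between the median and the upper quartile of DMSO. The spread was wider with DAC+SB in both lines, with a variance between cells 7.21 and 14.2 times that of random sampling in H1299 and 7.26 and 13.9 times in HCT116. Cells within a treated library thus differed more from each other in their share of these genes.

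**Figure D5:**
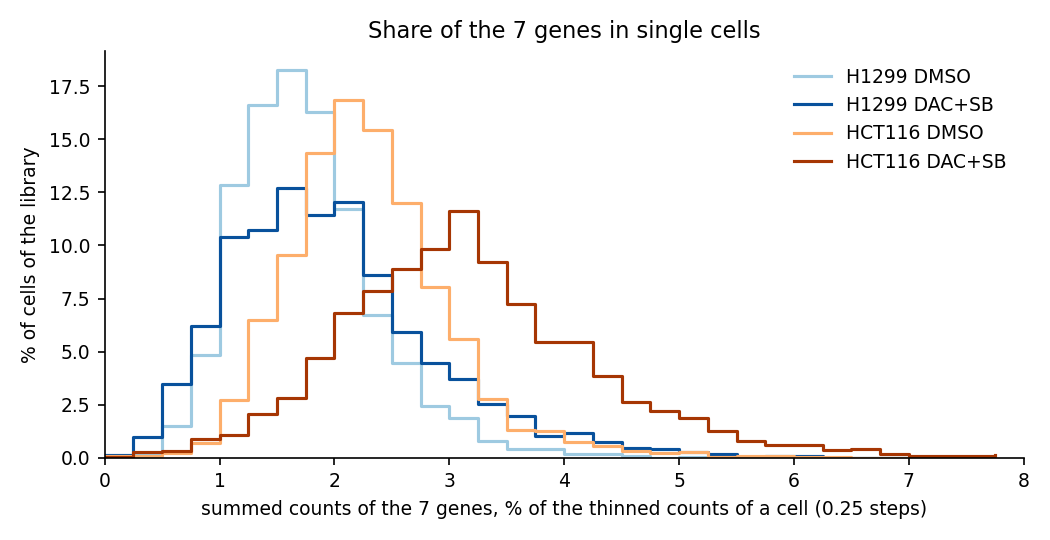
Distribution over cells of the summed share of the 7 genes (x axis, % of the 3300 counts each cell was thinned to, in steps of 0.25) as % of the cells of a library (y axis, from 0), with 1 line per library. The curve of HCT116 DAC+SB lies to the right of the others, around a median of 3.09%, and 1 H1299 DAC+SB cell and 8 HCT116 DAC+SB cells beyond 8% are not drawn.

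All 7 genes but MT-ND3 had a count in over 94% of thinned cells of every library. MT-ND3 under its own name had one in 37.7% (36.1 to 39.3), 46.0% (44.4 to 47.6), 43.1% (41.5 to 44.7) and 50.0% (48.5 to 51.6) of thinned cells, and in 85.7%, 88.4%, 88.6% and 74.1% of unthinned cells. Thinned and unthinned shares thus gave HCT116 DAC+SB the highest and the lowest place. Every cell type carries mitochondrial RNA, so no cells could serve as the background of free RNA for these genes.

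Across thinned cells of 1 library the genes varied together weakly to moderately. Over the 21 pairs of the 7 genes, the median Pearson correlation was 0.22, 0.37, 0.16 and 0.28 over 3578, 3726, 3658 and 3925 cells. The highest pair was MT-CO1 with MT-CYB in 3 libraries (0.59, 0.49 and 0.57) and MT-ND5 with MT-CO1 in the fourth, H1299 DMSO (0.47), and the lowest always included MT-ND3. The sum of the 7 genes had a Spearman correlation with the unthinned count per cell of -0.38, -0.51, -0.20 and -0.36. With the mitochondrial rRNAs the Pearson correlation was 0.27, 0.46, -0.02 and 0.29. These are descriptions of cells that share a library, a capture and a fixed total of counts.

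Among 199 nuclear genes with at least 1 thinned count per cell on average in every library, those most like the sum of the 7 genes were ranked by their lowest Pearson correlation over the 4 libraries. The first were NEAT1 (0.08 to 0.17) and MALAT1 (0.06 to 0.19), both long noncoding RNAs kept in the nucleus, followed by RPL4 (-0.0049 to 0.05), a ribosomal protein gene. The last were SNRPD2 (-0.38 to -0.01), PDCD5 (-0.37 to -0.01) and RPLP0 (-0.32 to 0.08). The correlations of the first 3 are weak, in sparse counts, and are no finding, and those of the last 3 are descriptions of cells that share a library and a fixed total.

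Cells in which mitochondrially encoded counts exceeded 25% of all counts numbered 91, 88, 364 and 1086. Most mitochondrially encoded counts were rRNA in these cells and in the other cells. The rRNAs held 87.0%, 83.4%, 83.0% and 67.5% of them in the cells above 25%, against 55.0%, 53.8%, 59.9% and 51.1% in the others. The 7 genes held 5.57%, 7.53%, 6.24% and 12.4%, against 18.8%, 20.1%, 14.5% and 18.1%. The cells above 25% were chosen by a total of which rRNA is the largest part, so a larger rRNA share in them is partly built in. In HCT116 DAC+SB these cells had a median of 4214.5 counts, against 9810.0 in the other cells. The summed share of the 7 genes was 1.73%, 2.41%, 2.07% and 3.86% in these cells, against 1.67%, 1.78%, 2.26% and 2.88% in the others, so HCT116 DMSO went the other way. The 7 genes are also part of the total that chose the cells, so a higher share is partly built in as well. Without the cells above 25%, the HCT116 log2 ratio of the sum was 0.35 in place of 0.44.

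Nuclear genes that work with the 10 genes did not share 1 direction. Counts and medians of these lists are by own names on the CPM scale. Of 73 nuclear subunits of complexes I, III, IV and V, 7 were past 1.5-fold upward and 7 downward in treated H1299 (median log2 ratio of 0.08), and 8 and 12 in treated HCT116 (0.04). Over all genes compared the medians were -0.07 and -0.23, and the shares past 1.5-fold are those given above. Complex IV subunits had the highest median of the 4 complexes, 0.30 in H1299 and 0.51 in HCT116, with 2 and 3 of 11 genes at least 1.5-fold higher and 1 and 0 lower. The lower one in H1299 was COX8A (-1.29, and -0.58 in HCT116), which was lowest of that list in both lines. With joined names, which hold most of its counts, COX8A was at -0.08 and -0.60, so it was past 1.5-fold lower in HCT116 and not in H1299. COX6A1 was highest of them in both lines, with a log2 ratio of 0.71 in each once joined names, which hold most of its counts, were added. Complex I subunits had medians of -0.00060 and -0.19. By own names, which held few of their counts, NDUFC2 was highest in H1299, NDUFA11 highest in HCT116 and NDUFV2 lowest in both. With joined names, NDUFC2 was at 0.63 in H1299, NDUFA11 at 0.58 in HCT116 and NDUFV2 at 0.15 and -0.60, and none of them held that rank.

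Over all genes compared, 24.9% were past 1.5-fold upward and 21.3% downward in H1299, and 22.7% and 35.2% in HCT116. In complex III, none of 9 genes in H1299 was past 1.5-fold, and in HCT116 2 were lower and 0 higher. The highest were UQCRQ in H1299 (0.29) and UQCRB in HCT116 (0.29), and the lowest UQCR10 (-0.29) and CYC1, the cytochrome c1 gene (-0.96). For ATP synthase 1 of 16 genes was higher and 0 lower in H1299, and 0 and 4 in HCT116. ATP5F1D, listed as ATP5D, was highest in both (1.71 and 0.56). ATP5MC1, listed as ATP5G1, was lowest in H1299 (-0.39) and ATP5PO, listed as ATP5O, in HCT116 by own names (-0.91, or -0.33 with joined names).

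Genes that transcribe and maintain mitochondrial DNA had median log2 ratios of -0.35 and -0.32, beside -0.07 and -0.23 over all genes. Of 14 measured, 5 were at least 1.5-fold lower in H1299 and 2 in HCT116, beside 21.3% and 35.2% of all genes, and 0 and 1 were higher. In HCT116 the lower share was thus under that of all genes, although the median was lower. TFAM, which packages and starts transcription of mitochondrial DNA, was at 136, 90.3, 119 and 92.2 CPM, with log2 ratios of -0.59 and -0.36. POLRMT was at 15.7, 18.4, 34.0 and 22.8 CPM, with 0.23 and -0.58. MTERF1, which binds within the tRNA gene after the rRNA genes, was highest in both lines (0.36 and 0.96), with MTERF3 lowest in H1299 (-1.39) and the nuclease gene MGME1 in HCT116 (-0.64).

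Of 16 measured genes for processing and stability of mitochondrial RNA, 1 was at least 1.5-fold higher and 6 lower in each line, beside 21.3% and 35.2% of all genes lower. The medians were -0.27 and -0.11, so in HCT116 the list lay above the median of all genes and its lower share was near theirs. LRPPRC, which binds and stabilises mitochondrial mRNAs, was at 71.6, 76.4, 98.1 and 97.8 CPM, with log2 ratios of 0.09 and -0.0048. PRORP, listed as KIAA0391, the nuclease that cuts the 5′ ends of mitochondrial tRNAs, was lowest in both lines by own names (-1.26 and -1.47). GRSF1, an RNA-binding protein of mitochondrial RNA granules, was highest in H1299 (1.09) and FASTKD3 in HCT116 (0.67).

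Among 11 mitochondrial translation factors, 1 was higher and 1 lower in H1299 and 1 and 2 in HCT116, with medians of 0.01 and 0.05. GFM2 was highest in H1299 (0.72) and TSFM, an elongation factor, in HCT116 (1.35), while MRRF, a ribosome recycling factor, was lowest in both (-0.78 and -1.57). No regulator of mitochondrial biogenesis was at least 1.5-fold higher, and 2 of 7 in H1299 and 3 of 6 measured in HCT116 were lower, beside 21.3% and 35.2% of all genes compared. The medians of this list were -0.57 and -0.65. PPRC1, a coactivator related to PGC-1alpha, was lowest in both lines (-1.69 and -1.69), and GABPB1 highest (-0.15 and -0.01).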

How the data were processed

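Single-cell 5′ RNA libraries of 4 groups, 1 library each, were analysed. The authors deposited whole-number counts per feature and cell for genes and for TE. Read 1 carries a cell barcode and a molecular identifier, per the labels' protocols, but whether the deposited counts are counts of molecules, and the counting tool, annotation and cell filter, are not stated in the labels or file headers. STAR, CASAVA and the builds GRCh38 and hg38 are named, without their roles, in the submitters' processing notes. Cells were assigned to libraries by their names.

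Counts of all features with a gene's own name were summed per library and divided by gene and TE counts. With 1 library per group there was no test. Ratios carry exact conditional binomial intervals, levels exact Poisson intervals and shares exact Clopper-Pearson intervals. All genes were compared where the higher library had at least 100 counts. Cells were thinned to 3300 counts, the lowest 10th percentile of the libraries rounded down. Doublets were not called, and the 5% of cells with the highest counts were removed in an alternative. The members and gene lists were chosen with earlier results of these data known. All 10 genes are named throughout. Of each other list, the genes with the highest and lowest log2 ratio in each line are named, and always POLRMT, TFAM and LRPPRC. Sequences and positions were read from the GENCODE v29 transcripts and annotation (GRCh38) by symbol. Lists use current symbols with older names where the table has them. Python 3.11.15, numpy 2.4.6, scipy 1.17.1 and pandas 2.3.3 were used, and ratios and intervals were tested on simulated data. Alternatives changed the denominator, the cells kept, the features counted and the fold.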

Additional observations from a re-analysis of the deposited data

Results flagged for a closer look

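On the CPM scale some genes had ratios to DMSO on opposite sides of 1 in the lines, with 1 library per group, so the differences were not tested over samples. MT-CYB was below DMSO in H1299 and above it in HCT116, with HCT116 higher by 0.39 on the log2 scale. For MT-ND6 that difference was 0.72 under its own name and 0.78 with joined names, and for MT-ATP8 0.21 and 0.34. The own name of MT-ND6 sums a feature without a number (-0.30 in H1299 and 0.06 in HCT116) and a numbered one (-0.12 and 0.84). MT-ND4L was on opposite sides with joined names only, with a difference of 0.19. MT-CO3, counted only jointly, was at -0.05 and 0.26 (a difference of 0.31, 0.15 to 0.47), but its H1299 interval (-0.17 to 0.07) includes 0. MT-CYB was close to DMSO in H1299, with a log2 ratio of -0.02, and was on the same side in both lines among cells of 10000 to 15000 counts. Per cell, MT-CYB was below DMSO in both lines (-0.13 and -0.57). So were MT-ND6 (5.43 and 4.40 counts per cell with DMSO and DAC+SB in H1299, 5.88 and 4.42 in HCT116), MT-ATP8 (10.9 and 9.44, 15.5 and 8.73) and MT-ND4L with joined names (67.1 and 61.9, 114 and 67.8). Size factors, which move every gene by 0.18 in H1299 and 0.31 in HCT116, put MT-CYB, MT-ATP8 and MT-ND4L above DMSO in both lines.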

How the results depend on the processing

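The log2 ratios of the summed 7 genes are given here in the order H1299 treatment, HCT116 treatment, HCT116 over H1299 under DMSO and under DAC+SB, followed by the number of genes past 1.5-fold in the last 3 where it moved, all higher unless stated. Reported values were 0.10, 0.44, 0.42 and 0.75, with 0, 0, 1 and 3 genes. As mean counts per cell they were -0.0061, -0.49, 0.34 and -0.14, so 3 of the 4 turned, and 2 genes (both lower), 0 and 2 (both lower) were past 1.5-fold. Size factors over 10231 nuclear genes gave 0.28, 0.75, 0.47 and 0.94 (6, 2 and 4 genes). This scale moves every gene by 0.18 in H1299 and 0.31 in HCT116 between treatments, and counts per cell move every gene by -0.11 and -0.93. Between lines, counts per cell move every gene by -0.07 under DMSO and -0.90 under DAC+SB. Shares of all genes past 1.5-fold were given above for the reported values only. Gene counts alone as denominator gave 0.14, 0.52, 0.42 and 0.79 (2 in HCT116). Without mitochondrial genes in the denominator the ratios were 0.10, 0.45, 0.55 and 0.90 (3 and 4 between lines), without mitochondrial and ribosomal protein genes 0.10, 0.44, 0.52 and 0.86 (3 and 4), and without mitochondrial rRNA 0.10, 0.42, 0.51 and 0.83 (2 and 4). Means of the share over cells gave 0.17, 0.49, 0.38 and 0.70 (1 in HCT116, 2 under DAC+SB), and medians over thinned cells 0.15, 0.46, 0.43 and 0.74 (of 6 genes measured, 3 in HCT116, and 2 higher and 1 lower under DMSO). Leaving out cells above 25% mitochondrial counts gave 0.091, 0.35, 0.43 and 0.69 (2 under DMSO), and the 5% of cells with most counts 0.14, 0.46, 0.40 and 0.72 (1 in HCT116).

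Features without a number gave 0.086, 0.39, 0.20 and 0.51 (0 under DMSO). Joined names gave 0.070, 0.43, 0.58 and 0.95 (4 and 7 of 10 genes between lines, with no share of all genes counted in this way). All mitochondrial protein gene features gave 0.041, 0.39, 0.63 and 0.98. Leaving out the numbered MT-ND2 feature gave 0.084 in H1299 and 0.77 under DAC+SB. Cells of 10000 to 15000 counts gave 0.18, 0.28, 0.28 and 0.39 (0 and 1 between lines). At 2-fold no gene was called, and 25.6%, 36.2%, 35.7% and 37.5% of all genes were past it. MT-CO2 under DAC+SB turned to -0.22 per cell. Of these alternatives, 4 were chosen after seeing the data: all protein gene features, the denominator without rRNA, the MT-ND2 feature and the range of counts per cell. Counting intervals are narrow at this depth except for MT-ND4 and MT-CO3, which had few counts. The cause of the shifts was not tested. No paired analysis was possible because each group has 1 library.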
